A study of Mus musculus with 28 samples.

Results

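Expression of 9 genes of microglia, the resident immune cells of the brain, was followed through the hypothalamus of leptin-treated and vehicle-treated mice. The genes were chosen by symbol, with earlier results of these data known: C1qa, C1qb, C1qc, Csf1r, Cx3cr1, Ctss, Aif1, Tmem119 and P2ry12. All 9 were found among the 55487 genes of the count table, and all 9 passed the filter on low counts in every comparison. All mice carried the LepRb-eGFP-L10a reporter, which puts an eGFP tag on the ribosomes of cells that make LepRb, the long form of the leptin receptor. Microglia are not known as a main site of LepRb, and whether any of them carried the tag was not tested. Antibodies against eGFP gave a bead fraction of tagged ribosomes with their RNA, and the supernatant that remained is called the depleted fraction. Males and females of 10 to 13 weeks were used together, and food was withdrawn at lights-on in every group, so every comparison is between fasted mice. They received 5 mg/kg of metreleptin, a recombinant leptin, or vehicle. The ob/ob mice carried the reporter and lacked functional leptin, and the mice labelled WT had an intact leptin gene. In each fraction there were 1 leptin and 2 vehicle libraries of ob/ob mice at 10 h, 3 leptin and 1 vehicle library of WT mice at 10 h, and 3 leptin and 4 vehicle libraries of WT mice at 3 h. Each of the 14 lysates gave 1 bead and 1 depleted library. Each of these 3 strata was sequenced in a run of its own, so time and genotype cannot be told apart from the run, while leptin and vehicle were compared within runs.

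Microglia survey the brain with moving processes, clear debris and prune synapses. C1qa, C1qb and C1qc code for the A, B and C chains of C1q, the recognition part of the first component of complement, which tags surfaces and synapses for removal and is made in the brain chiefly by microglia. Csf1r codes for the receptor of CSF1 and IL-34, on which microglia depend for survival. Cx3cr1 codes for the receptor of the neuronal chemokine fractalkine, and P2ry12 for an ADP receptor that guides microglial processes to injury. Ctss codes for cathepsin S, a lysosomal protease. Aif1 codes for IBA1, a calcium-binding protein of the actin cytoskeleton that serves as a general stain for microglia. Tmem119 codes for a membrane protein used to mark resident microglia. The hypothalamic microglia of the arcuate nucleus are known to react to diet and to leptin state.

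The ETS factor PU.1, made from Spi1, controls many microglial genes and binds sites with the core GAGGAA. Leptin acts through STAT3, whose site is written TTCCNGGAA. Both motifs were searched on both strands in the RefSeq promoters of build GRCm38.p6, from 250 bases before to 50 bases after the start. Promoters were matched for 6 of the 9 genes: C1qb, C1qc, Cx3cr1, Ctss, Aif1 and P2ry12. GAGGAA was present in 4 of the 6, against 28.3% of 32851 promoters of the same length. The longer form GAGGAAGT, which contains the shorter one, was present in C1qc and Ctss, against 3.2% of all promoters. TTCCNGGAA was found in none of the 6, against 1.15% of all promoters. A match is a run of letters and not a measured binding site. The 250 bases before the start of the 4 genes with a GAGGAA match are shown 5′ to 3′ on the strand of the gene. These genes include C1qc and Ctss, which passed in the leptin fit over all strata in depleted RNA, a fragile call described below. They also include Aif1, which went its own way. Capitals mark GAGGAA or its reverse complement TTCCTC.
C1qb, chr4:136886201-136886450, minus strand: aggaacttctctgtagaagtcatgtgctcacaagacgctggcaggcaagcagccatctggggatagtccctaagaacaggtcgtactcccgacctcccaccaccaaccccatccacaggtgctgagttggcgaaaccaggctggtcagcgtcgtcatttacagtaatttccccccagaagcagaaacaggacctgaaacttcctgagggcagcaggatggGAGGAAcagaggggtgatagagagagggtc
C1qc, chr4:136892915-136893164, minus strand: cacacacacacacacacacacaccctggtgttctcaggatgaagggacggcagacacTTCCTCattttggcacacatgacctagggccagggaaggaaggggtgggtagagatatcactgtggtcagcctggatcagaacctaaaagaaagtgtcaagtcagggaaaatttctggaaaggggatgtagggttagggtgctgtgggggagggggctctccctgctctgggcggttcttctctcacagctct
Ctss, chr3:95526536-95526785, plus strand: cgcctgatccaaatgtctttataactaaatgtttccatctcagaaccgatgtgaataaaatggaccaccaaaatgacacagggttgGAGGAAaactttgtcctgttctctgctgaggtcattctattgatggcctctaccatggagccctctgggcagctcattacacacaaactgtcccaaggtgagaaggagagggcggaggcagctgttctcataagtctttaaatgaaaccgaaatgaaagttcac
Aif1, chr17:35176053-35176302, minus strand: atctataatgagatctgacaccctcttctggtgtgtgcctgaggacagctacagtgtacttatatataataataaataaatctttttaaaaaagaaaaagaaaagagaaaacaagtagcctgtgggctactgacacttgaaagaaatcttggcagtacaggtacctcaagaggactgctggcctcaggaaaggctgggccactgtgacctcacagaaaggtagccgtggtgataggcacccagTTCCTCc
The match began 30 bases before the start in C1qb, 193 bases before it in C1qc, 164 bases before it in Ctss and 7 bases before it in Aif1. Ctss held a further match at the start itself, beyond the printed stretch.

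The 3 C1q genes lie side by side on chromosome 4 of GRCm38, all on the minus strand: C1qb at 136880129 to 136886187 (ENSMUSG00000036905), C1qc at 136889804 to 136893065 (ENSMUSG00000036896) and C1qa at 136895917 to 136898803 (ENSMUSG00000036887). Ctss lies on chromosome 3 at 95526786 to 95556403 (ENSMUSG00000038642), and P2ry12 on the same chromosome at 59216272 to 59262871 (ENSMUSG00000036353). Csf1r is on chromosome 18 at 61100598 to 61132149 (ENSMUSG00000024621), Cx3cr1 on chromosome 9 at 119901616 to 120069879 (ENSMUSG00000052336), Aif1 on chromosome 17 at 35170991 to 35176068 (ENSMUSG00000024397) and Tmem119 on chromosome 5 at 113793729 to 113800516 (ENSMUSG00000054675). In the GENCODE M21 annotation the C1q genes, Aif1 and Tmem119 overlap no other gene. The library kit does not mark strand, so reads of overlapping genes cannot be told apart. P2ry12 lies within Med12l on the opposite strand, which had a mean of 31.6 CPM in beads and 47.4 CPM in depleted RNA. Csf1r overlaps Hmgxb3, and the long Cx3cr1 model overlaps Wdr48, Gorasp1 and other genes, so the values of P2ry12, Csf1r and Cx3cr1 carry that uncertainty.

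Total counts per library were 21277982 to 42267040 in beads and 19649105 to 41804049 in depleted RNA. Levels are given as CPM, counts scaled to a common library total after TMM, a normalization that balances libraries on the genes they share. Lepr, the receptor gene, was 4.86-fold higher in beads than in depleted RNA and higher in beads in 14 of 14 lysates. Growth hormone mRNA (Gh), a pituitary transcript, stood at 1270 CPM in the depleted library of the WT 3 h leptin lysate f2, at 233 CPM in that of the WT 3 h vehicle lysate m3 and at 121 CPM in that of the ob/ob leptin lysate, against at most 1.5 CPM in the other 11 depleted libraries. Some results that rest on f2 or m3 are given below with and without them. The ob/ob leptin arm is a single lysate, so every ob/ob leptin value in both fractions rests on it.

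All 9 genes were counted in all 28 libraries, and in depleted RNA all 24 further microglial markers were counted in all 14 libraries. The lowest count of any of the 9 was 41 in depleted RNA and 11 in beads, both for Aif1. In depleted RNA the mean level was 15.7 ± 3.59 CPM for Csf1r, 13.3 ± 2.7 for Cx3cr1, 12.2 ± 3.25 for Ctss, 11.1 ± 2.91 for C1qb and 10.2 ± 2.21 for P2ry12 (SD, n = 14 each). It was 9.14 ± 2.32 CPM for C1qa, 8.94 ± 1.94 for C1qc, 6.76 ± 1.56 for Tmem119 and 2.80 ± 0.60 for Aif1. Per kilobase of exon the order was different: C1qb led with a mean of 10.2 CPM per kb, then Ctss (8.95), C1qa (8.79), C1qc (4.63), P2ry12 (4.00), Cx3cr1 (2.94), Tmem119 (2.92), Csf1r (2.71) and Aif1 (1.83). C1qa stood above C1qc, and P2ry12 above Cx3cr1, in 14 of 14 depleted libraries. Ctss and C1qa could not be ordered, with Ctss higher in 7 of 14, and neither could Cx3cr1 and Tmem119, with Cx3cr1 higher in 7 of 14. The 3 C1q chains kept a steady proportion per length in depleted RNA: C1qb made up 43.0% ± 2.34 of their sum, C1qa 37.2% ± 1.68 and C1qc 19.8% ± 1.33 (SD, n = 14). In beads, where counts were lower, the shares were 41.7% ± 5.19, 38.5% ± 3.43 and 19.8% ± 4.27.

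**Figure D1:**
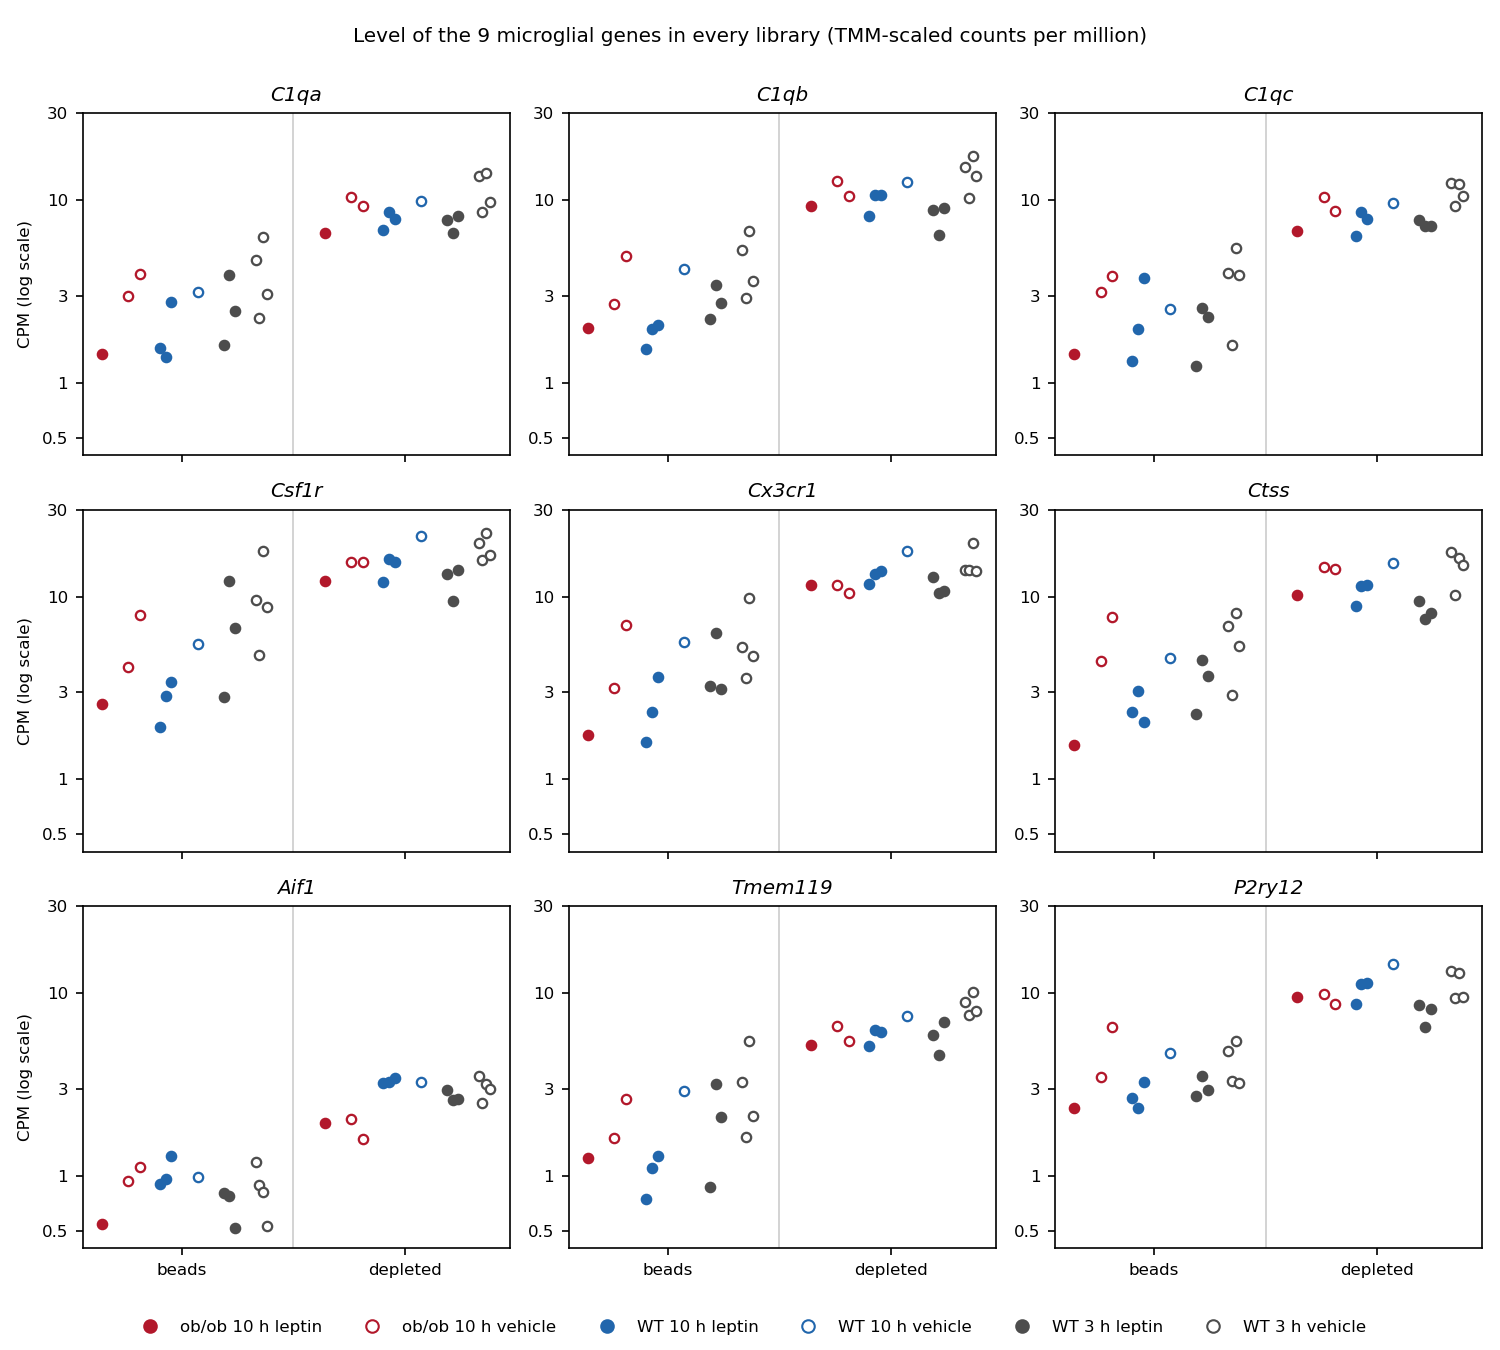
Level of each of the 9 genes in every library, in TMM-scaled CPM on a log axis, beads at the left and depleted RNA at the right of each panel. Each point is 1 library, filled for leptin and open for vehicle, coloured by stratum. For each gene the bead levels lie mostly below the depleted levels, and Aif1 has the lowest mean of the 9 in both fractions.

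The comparison of beads with depleted RNA asked which transcripts travel with tagged ribosomes of LepRb cells. All 9 microglial genes fell in beads, to between 28.8% and 36.3% of their depleted level. It also sets ribosome-bound RNA against RNA that includes unbound transcripts, and these differences cannot be told apart from those in cell type. C1qb had 1.53, 2.82 and 6.74 CPM in beads as lowest, median and highest of 14 libraries, against 6.46, 10.6 and 17.3 CPM in depleted RNA. Its log2 fold change was -1.79 (SE 0.12, adjusted p = 4.40e-11 in edgeR's quasi-likelihood test with lysate as a block). C1qa had 1.38, 2.88 and 6.30 CPM in beads against 6.59, 8.61 and 14.2 CPM in depleted RNA. No bead library reached the lowest depleted library for C1qa, while for C1qb the highest bead library lay above the lowest depleted one. C1qc had 1.24, 2.55 and 5.48 CPM in beads, against 6.32, 8.67 and 12.5 CPM in depleted RNA, also without overlap between the fractions. How many of all genes lack such overlap is not given here. The log2 fold changes of C1qa and C1qc were -1.69 (SE 0.11) and -1.75 (SE 0.12).

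Among the receptors, P2ry12 had 2.34, 3.29 and 6.53 CPM in beads, against 6.56, 9.52 and 14.6 CPM in depleted RNA, and a log2 fold change of -1.49 (SE 0.11). Cx3cr1 had 1.60, 3.60 and 9.86 CPM in beads, against 10.4, 13.1 and 19.8 CPM in depleted RNA, and a log2 fold change of -1.70 (SE 0.17). Neither gene overlapped between the fractions, though the gap was narrow for P2ry12, at 6.53 against 6.56 CPM. The share of all genes without overlap is not given here either. Csf1r, the receptor on which microglia depend, was the most variable: 1.94, 5.15 and 17.8 CPM in beads, against 9.43, 15.5 and 22.3 CPM in depleted RNA. Its log2 fold change was -1.46 (SE 0.23, adjusted p = 2.98e-05). In the WT 3 h leptin lysate f2 Csf1r stood at 129% of its depleted level, and in the other 13 lysates it was lower in beads. Each of the other 8 genes was lower in beads in 14 of 14 lysates. The remaining log2 fold changes were -1.59 for Ctss (SE 0.13), -1.68 for Aif1 (SE 0.12) and -1.75 for Tmem119 (SE 0.16). Of all 19682 genes tested 39.3% were lower in beads, so that a fall by itself was common.

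**Figure D2:**
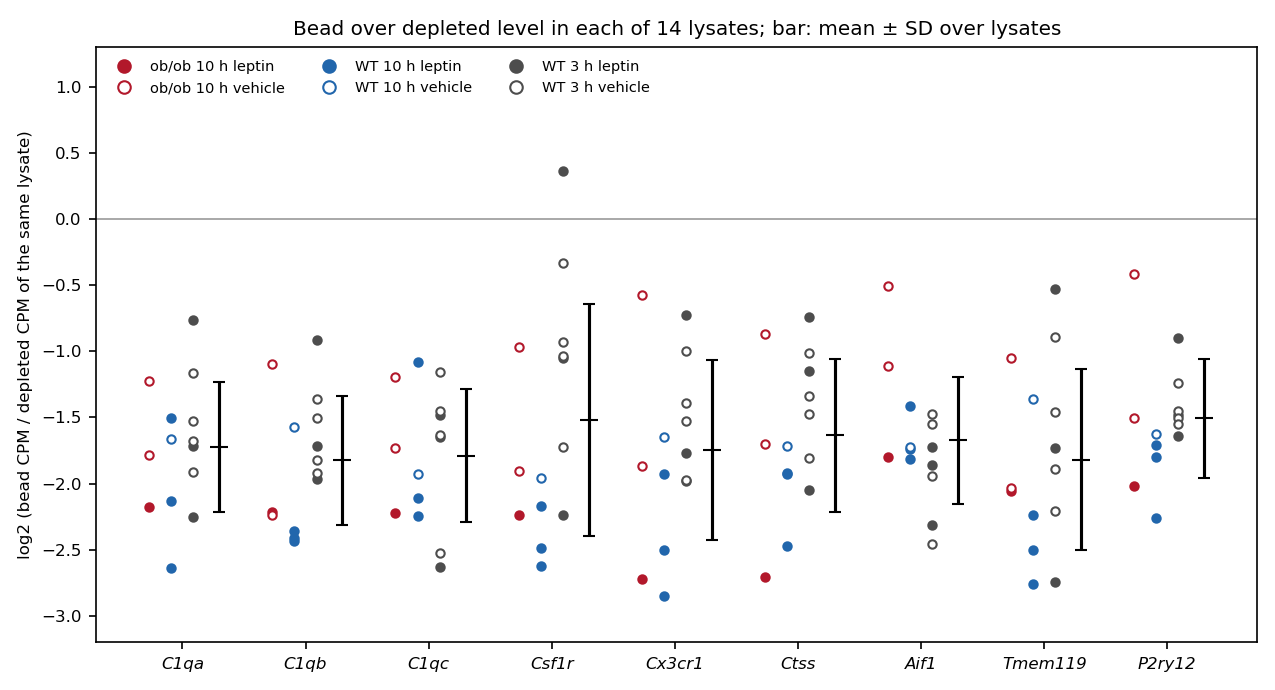
Log2 ratio of the bead level to the depleted level of the same lysate for each of the 9 genes. Points are the 14 lysates, filled for leptin and open for vehicle, and the bar gives their mean and SD. The means of the 9 genes lie between -1.82 and -1.51, and 1 point, Csf1r in a leptin lysate, lies above 0.

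The 9 genes differed little from each other in this ratio. Of 36 pairs compared by an exact two-sided sign-flip permutation test over lysates, 1 passed after Benjamini-Hochberg adjustment. The C1qb ratio averaged -1.82 ± 0.49 and the P2ry12 ratio -1.51 ± 0.45 (log2, SD, n = 14), and C1qb was the lower of the pair in all but 1 lysate (difference -0.32, SD 0.26, adjusted p = 0.018, exact permutation test). The lysates moved together: the median ratio over the 9 genes was lowest in the WT 10 h leptin lysate 2, at -2.43, and highest in the WT 3 h leptin lysate f2, at -0.76.

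Other microglial markers behaved alike. Of the 24 further ones 23 fell in beads and 1 rose, with a median log2 fold change of -1.60. Spi1, the gene of PU.1, had a log2 fold change of -2.04, Laptm5, which codes for a lysosomal membrane protein, one of -1.99 and Sall1, a transcription factor of microglial identity, one of -1.80. The list was not uniform: Slc2a5, a fructose transporter gene with a mean of 3.61 CPM in beads and 2.66 CPM in depleted RNA, rose by 0.44. The other glial lists moved the same way, with 12 of 12 astrocyte markers lower (median -1.16) and 12 of 12 oligodendrocyte markers lower (median -1.59). Neuronal markers were split, 7 of 12 higher and 4 lower (median 0.17), as were endothelial and mural markers, 4 of 12 higher and 3 lower (median 0.39). The median over all genes tested was -0.01.

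Of 26 complement genes outside C1q 18 passed the filter, and 6 rose in beads while 7 fell (median -0.37). These counts lie near the background, where 38.6% of all genes were higher in beads and 39.3% lower. Clu, which codes for the complement inhibitor clusterin, had a mean of 241 CPM in beads and 172 CPM in depleted RNA and rose by 0.49 on the log2 scale. C1qbp, whose mitochondrial protein was named for binding C1q, rose by 0.57, and Cd55, an inhibitor of the C3 convertases, by 0.61. C3, the central complement component, had 2.26 CPM in beads and 1.77 CPM in depleted RNA and rose by 0.36. Among those that fell were Cfp, which codes for properdin, by 1.77, and C3ar1, the receptor of the C3a fragment, by 1.53. Il34, a ligand of the Csf1r receptor that neurons make, was at 27.2 CPM in beads and 19.1 CPM in depleted RNA and rose by 0.50. It was the only one of 4 ligand and cue genes to rise: Tgfb1, a growth factor that maintains microglia, fell by 0.48, and the log2 fold changes of Csf1, the other Csf1r ligand, and Cx3cl1, which codes for fractalkine, were 0.04 and 0.08 and did not pass. Markers of border macrophages, the macrophages of meninges and vessels, were split: 5 of 7 passed the filter, of which 3 fell, among them Cbr2 by 2.13 and F13a1 by 1.59, and 2 rose, Mrc1 by 0.38 and Lyve1 by 0.60.

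**Figure D3:**
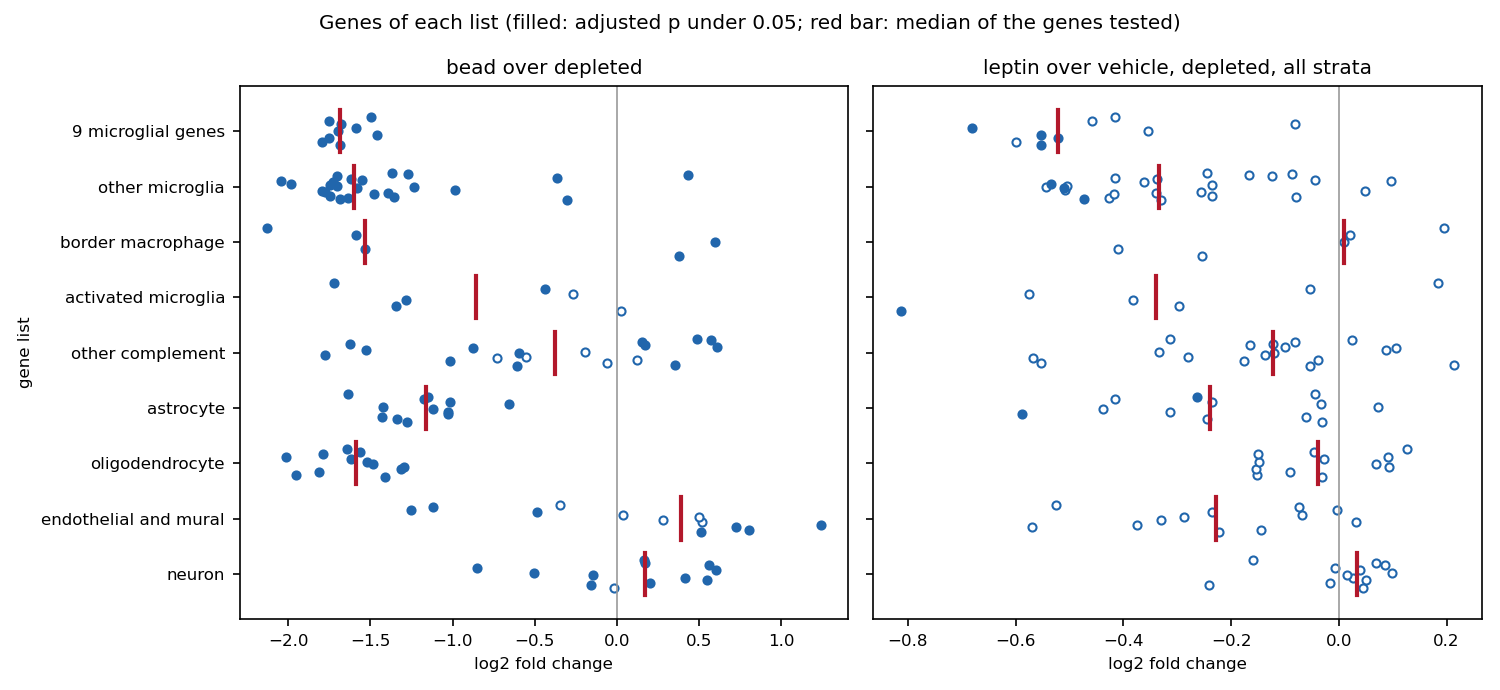
Log2 fold changes of the genes of each list for bead over depleted RNA (left) and for leptin over vehicle in depleted RNA across the 3 strata (right). Each point is a gene that passed the filter, filled where its adjusted p was under 0.05, and the red bar is the median of the list. On the left the 9 genes lie with the other microglial, astrocyte and oligodendrocyte markers, and on the right their median is -0.52, against -0.33 for the other microglial markers and -0.04 for oligodendrocyte markers.

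Leptin was set against vehicle first in the depleted fraction, where the CPM of the 9 genes were higher. In bulk RNA, fewer microglia and less of these mRNAs in each cell cannot be told apart. At 3 h in WT mice, Ctss stood at 9.46, 7.52 and 8.18 CPM in the leptin libraries m24, f2 and f4, against 17.6, 10.2, 16.4 and 14.9 CPM in the vehicle libraries m1, m3, f1 and f3. Every leptin library lay below every vehicle library, with vehicle m3 the nearest. The log2 fold change was -0.82 (SE 0.16). C1qb had 8.81, 6.46 and 9.0 CPM with leptin, against 15.2, 10.3, 17.3 and 13.6 CPM with vehicle (log2 fold change -0.81, SE 0.17). C1qa had 7.74, 6.59 and 8.15 CPM with leptin, against 13.5, 8.58, 14.2 and 9.78 CPM with vehicle (-0.63, SE 0.16). For both chains the groups did not overlap, and m3 was again the lowest vehicle library. C1qc had 7.77, 7.21 and 7.18 CPM with leptin, against 12.5, 9.28, 12.3 and 10.6 CPM with vehicle (-0.60, SE 0.12), the tightest leptin group of the 3 chains.

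The receptors showed the same order. Csf1r had 13.3, 9.43 and 13.9 CPM with leptin, against 19.6, 15.9, 22.3 and 16.8 CPM with vehicle (log2 fold change -0.62, SE 0.15). Cx3cr1 had 12.9, 10.4 and 10.7 CPM with leptin, against 13.9, 14.1, 19.8 and 13.7 CPM with vehicle (-0.45, SE 0.13). P2ry12 had 8.59, 6.56 and 8.24 CPM with leptin, against 13.2, 9.41, 13.0 and 9.5 CPM with vehicle (-0.54, SE 0.15). None of the 3 receptors overlapped, though the gap was narrow for Cx3cr1, whose vehicle group is spread by f1 alone. Tmem119 had 5.93, 4.61 and 6.99 CPM with leptin, against 8.97, 7.62, 10.2 and 7.95 CPM with vehicle (-0.58, SE 0.14), also without overlap. Aif1 stood apart, with 2.95, 2.60 and 2.63 CPM with leptin, against 3.53, 2.51, 3.19 and 3.00 CPM with vehicle (-0.17, SE 0.14). Its groups overlapped, because vehicle m3 was the lowest of all 7 libraries.

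In sum over the 9 genes the leptin libraries held 61.4 to 77.4 CPM and the vehicle libraries 87.8 to 128.5 CPM at 3 h. Of the 9 genes 8 had every leptin library below every vehicle library, against 3.57% of the 19115 genes tested. The 9 were chosen with earlier results of these data known, so this contrast is a description and no test. As markers of the same cell type they are not independent of each other. After adjustment over all genes, edgeR called 0 of the 9 (adjusted p 0.29 to 0.74) and 0% of all genes. Before adjustment 8 of the 9, all but Aif1, had p under 0.05, as had 1812 genes in all. The count of members called was 6 with DESeq2, 0 with limma voom, 8 in edgeR without the filter on low counts and 2 without the vehicle lysate m3. For such alternatives, also below, the share of all genes called is not given, so these counts have no background beside them. The count without both f2 and m3 is not given for this comparison. Library f2 was the lowest leptin library for all of the 9 but C1qc. Over the alternatives run, the median log2 fold change of the 9 ranged from -0.70 to -0.47.

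At 10 h the direction in depleted RNA was the same for 8 of the 9 genes. Ctss had 10.2 CPM in the ob/ob leptin library, against 14.5 and 14.2 CPM in the ob/ob vehicle libraries. It had 8.91, 11.5 and 11.5 CPM in the WT leptin libraries, against 15.2 CPM in the WT vehicle library. In both genotypes the leptin libraries lay below vehicle, a pattern that was common at 10 h, where 1 arm of each genotype is a single library: 31.2% of all genes showed it in ob/ob mice and 29.0% in WT mice. C1qa had 6.59 CPM with leptin, against 10.4 and 9.24 CPM with vehicle in ob/ob mice. In WT mice C1qa had 6.83, 8.64 and 7.87 CPM with leptin, against 9.91 CPM with vehicle. C1qa showed the same order in both genotypes. Of the 9 genes 6 had every leptin library below vehicle in ob/ob mice and 8 in WT mice. Csf1r had 12.2 CPM in the ob/ob leptin library against 15.4 and 15.5 CPM with vehicle, and 12.0, 16 and 15.4 CPM in the WT leptin libraries against 21.4 CPM with vehicle. For Cx3cr1, P2ry12 and Aif1 the ob/ob leptin library lay among or above the ob/ob vehicle libraries: Cx3cr1 had 11.6 CPM with leptin against 11.6 and 10.5 CPM with vehicle. The log2 fold changes, averaged over the genotypes, ran from -0.51 (Ctss, SE 0.18) to 0.06 (Aif1, SE 0.17), with a median of -0.33. In edgeR 0 of the 9 passed, against 0.00523% of all genes, and 4 had p under 0.05 before adjustment. DESeq2 and limma voom called 0 as well, and edgeR without the filter on low counts called 3.

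A leptin effect common to the 3 strata was then fitted over the 14 depleted libraries. Ctss fell by 0.68 on the log2 scale with leptin (SE 0.12, adjusted p = 0.032), to 62.4% of its vehicle level. C1qc fell by 0.52 (SE 0.09, adjusted p = 0.032), C1qa by 0.55 (SE 0.12, adjusted p = 0.042) and Csf1r by 0.55 (SE 0.11, adjusted p = 0.037). These 4 of 9 passed edgeR's adjusted threshold, against 0.534% of the 19115 genes tested that were called lower. The other log2 fold changes were -0.60 for C1qb (SE 0.14, adjusted p = 0.057), -0.46 for Tmem119 (SE 0.11, adjusted p = 0.055), -0.42 for P2ry12 (SE 0.12, adjusted p = 0.099), -0.35 for Cx3cr1 (SE 0.10, adjusted p = 0.11) and -0.08 for Aif1 (SE 0.10, adjusted p = 0.77). The 2 C1q chains that passed and C1qb, which did not, thus had like values. Of the 9 genes 6 had every leptin library below every vehicle library in all 3 strata, against 1.19% of all genes, and Cx3cr1, Aif1 and P2ry12 did not. Because the 9 were chosen with earlier results of these data known, both contrasts with all genes are descriptions. The 9 are also not independent of each other. The calls were fragile: none of the 9 passed without the lysate WT 10 h leptin 3, WT 10 h vehicle 1, WT 3 h leptin f2, ob/ob leptin 1 or ob/ob vehicle 2, or with the WT libraries alone, while DESeq2 called 8, edgeR without the filter on low counts 8, limma voom 3 and the fit without f2 and m3 3. Leaving out WT 3 h leptin f4 left 1 call, and leaving out WT 10 h leptin 1 or 2 or WT 3 h vehicle m1 left 2. How many of all genes each of these alternatives called is not given here, so whether its count is particular to the 9 is open.

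Markers of other cells moved beside them in the same fit. Of the 24 other microglial markers 3 fell and none rose: Trem2, a lipid-sensing receptor gene, by 0.47, Selplg, a selectin ligand gene, by 0.51 and Laptm5 by 0.53 (median -0.33, 22 of 24 negative). Lpl, the lipoprotein lipase gene of the activated-microglia list, fell by 0.81, and leptin values of the other members of that list are not given here. Unlike the 9 genes, Lpl was not lower in beads than in depleted RNA (log2 fold change 0.02). Of 12 astrocyte markers 2 fell, Slc1a3, a glutamate transporter gene, by 0.59 and Gjb6, a connexin gene, by 0.26 (median -0.24, 11 of 12 negative). None of 12 endothelial and mural markers (median -0.23), of 12 oligodendrocyte markers (median -0.04) or of 12 neuronal markers (median 0.03) passed, and the median of all genes was 0.00. The summed level of the astrocyte list at 3 h was 1738 to 1858 CPM with leptin and 1748 to 2093 CPM with vehicle. Much of this sum is a single gene, Aldoc, with a mean of 946 CPM in depleted RNA. When the mean level of the astrocyte, oligodendrocyte and endothelial and mural lists entered the fit as a covariate, chosen after seeing the data, none of the 9 genes passed and their median was -0.29. The pituitary list had a median of 2.34, with none of its 4 tested members past the threshold. Of the 18 complement genes outside C1q that were tested, none passed (median -0.12).

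**Figure D4:**
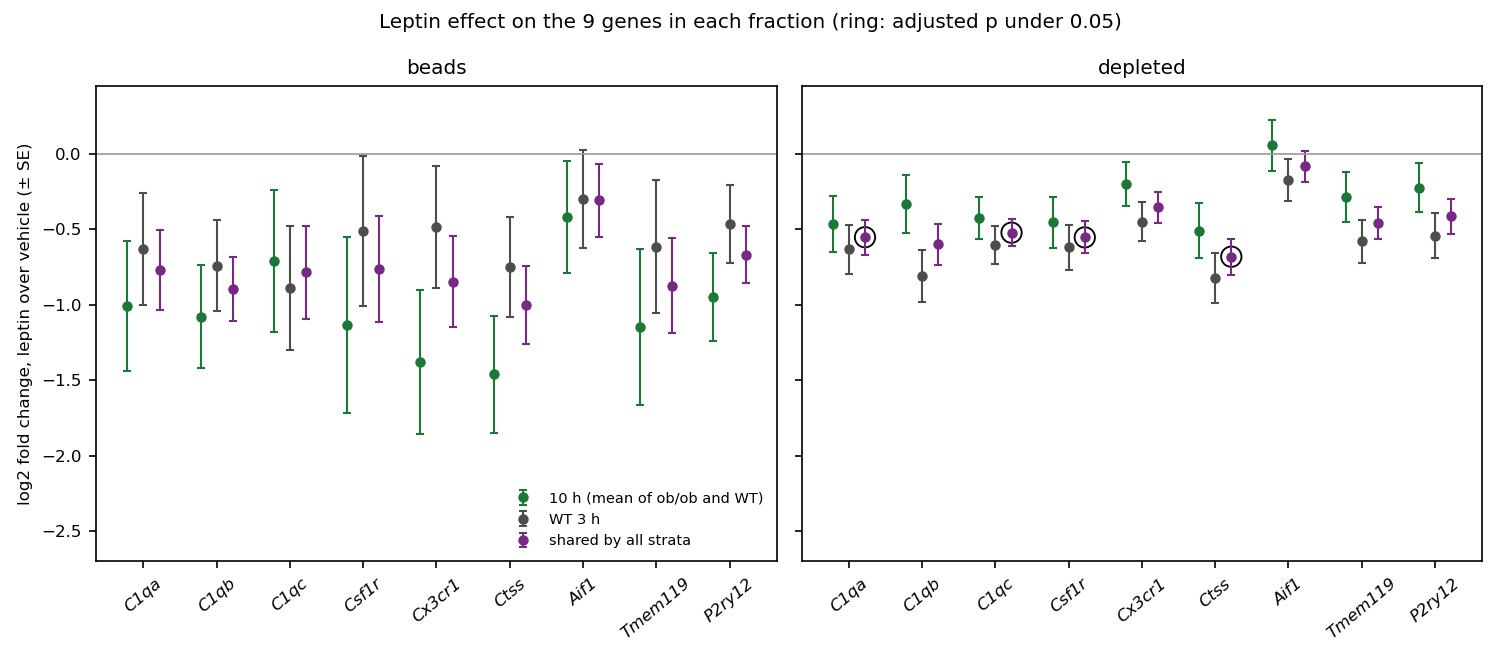
Log2 fold change of leptin over vehicle for each of the 9 genes, with its standard error, in beads (left) and depleted RNA (right). Colours give the effect at 10 h, at 3 h in WT mice and across all strata, and rings mark an adjusted p under 0.05. The 4 rings are C1qa, C1qc, Csf1r and Ctss in depleted RNA across the strata, and bead effects have wider errors.

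In beads the 9 genes also leaned below vehicle, with larger spread. At 3 h Csf1r had 2.81, 12.2 and 6.70 CPM with leptin (m24, f2 and f4), against 9.55, 4.81, 17.8 and 8.80 CPM with vehicle (m1, m3, f1 and f3). C1qb had 2.24, 3.41 and 2.73 CPM with leptin, against 5.34, 2.91, 6.74 and 3.59 CPM with vehicle. Leptin f2 was the highest leptin library and vehicle m3 the lowest vehicle library for both, so the groups overlapped. At 3 h 0 of the 9 had every leptin library below every vehicle library, against 4.13% of all genes. The log2 fold changes ran from -0.89 (C1qc) to -0.30 (Aif1), with a median of -0.61, which became -1.21 without f2 and m3. In edgeR 0 of the 9 passed, against 0.022% of all genes, while C1qb, C1qc and Ctss, 3 in all, had p under 0.05 before adjustment. The count was 0 with DESeq2 and 0 with limma voom.

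At 10 h in beads, Ctss had 1.54 CPM in the ob/ob leptin library, against 4.43 and 7.76 CPM in the ob/ob vehicle libraries. In WT mice it had 2.33, 3.03 and 2.07 CPM with leptin, against 4.62 CPM with vehicle. Its log2 fold change of -1.46 (SE 0.39) was the lowest of the 9, and their median was -1.08. Of the 9 genes 0 passed in edgeR at 10 h, against 0.022% of all genes, and 6 had p under 0.05 before adjustment. The count was 1 with DESeq2 (Ctss), 0 with limma voom and 6 in edgeR without the filter on low counts. Across the strata all 9 bead values were negative, from -1.0 (Ctss, SE 0.26) to -0.31 (Aif1, SE 0.24), with a median of -0.78. Across the strata edgeR called 0 of the 9, against 0.022% of all genes, with 8 at p under 0.05 before adjustment. The count was 2 with DESeq2 (C1qb and Ctss), 0 with limma voom, 8 in edgeR without the filter on low counts, 7 without f2 and m3 and 2 without m3 alone. In all 3 strata together 0 of the 9 had every leptin library below every vehicle library, against 0.571% of all genes. The astrocyte list (median -0.66), the endothelial and mural list (-0.67) and the oligodendrocyte list (-0.50) were also below 0 in this fit, with no member of them past the threshold, and their part in the bead values of the 9 genes was not tested.

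Whether leptin acted differently on the 2 fractions was tested as an interaction within lysates. At 3 h the difference of the leptin effect, beads minus depleted, ran from -0.25 (C1qc, SE 0.36) to 0.11 (C1qb, SE 0.27), with a median of 0.01. Across the strata it was negative for all 9, from -0.47 (Cx3cr1, SE 0.30) to -0.21 (C1qa, SE 0.24). In each test edgeR called 0 of the 9, against 0.0102% of all genes at 3 h and 0.0305% across the strata. Before adjustment 0 members had p under 0.05 in either test, and the counts with DESeq2 and limma voom were 0. With standard errors of 0.20 to 0.37 across the strata, differences of this size were not detectable.

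Aif1 departed from the other 8 genes. Its log2 CPM less the mean log2 CPM of the other 8 was -2.13 in the depleted ob/ob leptin library, against -2.63 and -2.43 in the vehicle libraries. In depleted WT libraries it was -1.67 to -1.34 with leptin, against -1.98 with vehicle, at 10 h, and -1.74 to -1.46 with leptin, against -2.25 to -1.97 with vehicle, at 3 h. In every stratum the leptin libraries lay above the vehicle libraries. At 10 h, 1 arm of each genotype is a single library, and how common such an order is among all genes is not given here. The ratio rises when the other 8 fall as well as when Aif1 rises. Across the strata in depleted RNA the leptin effect was -0.08 for Aif1 and -0.68 (Ctss) to -0.35 (Cx3cr1) for the other 8 on the log2 scale. Aif1 and the other 8 genes were chosen for this contrast after their values were seen, so it is a description with no test. In beads, where Aif1 had 11 to 40 counts per library, the groups overlapped at 3 h.

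**Figure D5:**
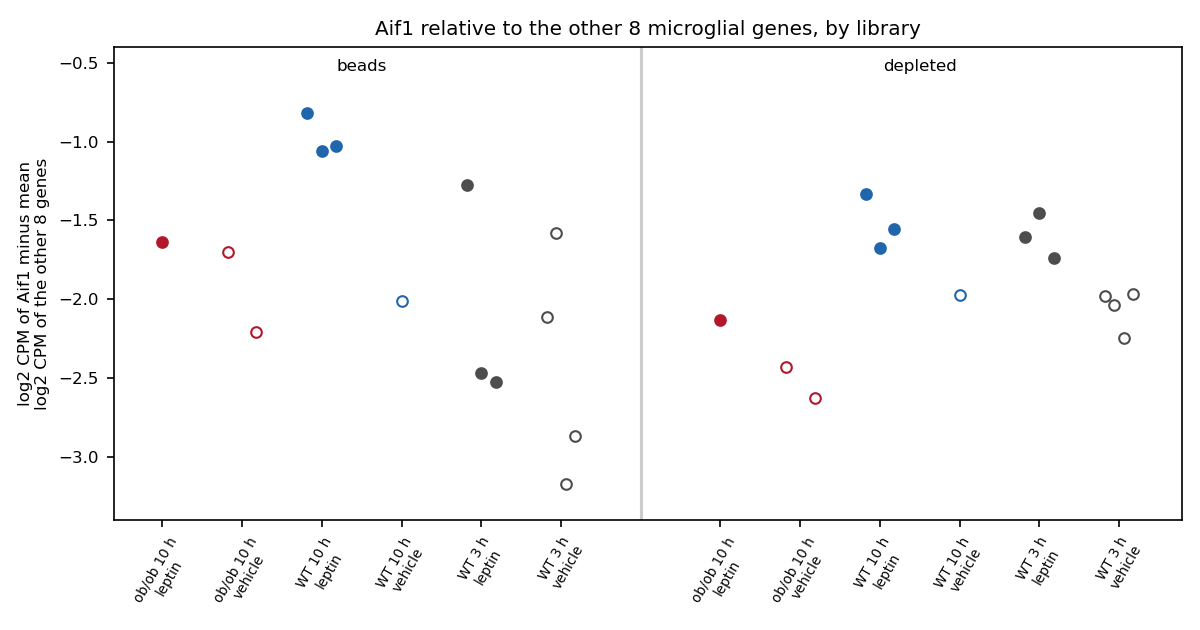
Log2 CPM of Aif1 less the mean log2 CPM of the other 8 genes, 1 point per library, beads at the left and depleted RNA at the right, filled for leptin and open for vehicle. In depleted RNA the leptin points lie above the vehicle points of their stratum, and the ob/ob vehicle points lie lowest.

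The comparison of ob/ob with WT mice at 10 h, which cannot be told apart from the sequencing run, called Aif1 alone of the 9. In depleted RNA it had 1.95 CPM with leptin and 2.05 and 1.59 CPM with vehicle in ob/ob mice. In WT mice at 10 h it had 3.23, 3.25 and 3.45 CPM with leptin and 3.26 CPM with vehicle. Every ob/ob library was below every WT library, an order whose share among all genes is not given here. Aif1 fell by 0.82 on the log2 scale in ob/ob mice (SE 0.17, adjusted p = 0.014), to 56.8% of the WT level. It was the only one of the 9 to pass, against 2.85% of all genes that were called lower, and DESeq2 and limma voom each called 1 of the 9 as well, while edgeR without the filter on low counts called 4. The other 8 values were between -0.43 (Cx3cr1, SE 0.15, adjusted p = 0.098) and -0.09 (Ctss, SE 0.18). All 9 values were thus negative. In edgeR 4 of the 9 had p under 0.05 before adjustment, as had 4272 genes in all. Leaving out the WT 3 h vehicle lysate f1 gave 2 calls, with Cx3cr1 the second. Of the other 24 microglial markers 3 were lower in ob/ob mice: Fcrls, an Fc receptor-like gene, fell by 1.58, Gpr34, a lysophospholipid receptor gene, by 0.93 and Selplg by 0.60. Fcrls and Gpr34 were also higher in WT mice at 10 h than at 3 h, by 0.63 and 0.65. The same WT 10 h libraries enter both comparisons. Of the 6 blood cell markers tested 3 were higher in ob/ob mice, Hbb-bs by 1.1, Hba-a1 by 1.16 and Alas2 by 0.93 on the log2 scale, and their part in the Aif1 value was not tested. Of the 97 tested genes within 1 Mb of Aif1, 8 were called in either direction, or 8.25%, against 5.57% of all genes. In beads Aif1 had 0.55 CPM with leptin and 0.94 and 1.11 CPM with vehicle in ob/ob mice, against 0.90, 0.96 and 1.29 CPM with leptin and 0.98 CPM with vehicle in WT mice. The bead groups overlapped, its log2 fold change was -0.43 (SE 0.37), and edgeR called 0 of the 9, against 0.472% of all genes. Before adjustment 0 members had p under 0.05, and the counts with DESeq2 and limma voom were 0.

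WT mice at 10 h were also set against WT mice at 3 h, again across 2 sequencing runs. In depleted RNA edgeR called 0 of the 9, against 7.18% of all genes, and 1, P2ry12, had p under 0.05 before adjustment. DESeq2 called it too and limma voom called 0. P2ry12 had 8.74, 11.3 and 11.4 CPM with leptin and 14.6 CPM with vehicle at 10 h, against 8.59, 6.56 and 8.24 CPM with leptin and 13.2, 9.41, 13.0 and 9.5 CPM with vehicle at 3 h (log2 fold change 0.40, SE 0.13, adjusted p = 0.069). Within each arm its 10 h libraries lay above its 3 h libraries. The vehicle arm at 10 h is a single library, and in the leptin arm the nearest values were 8.74 and 8.59 CPM. How many of all genes show this order is not given here. Leaving out the lysate WT 10 h leptin 1 or WT 3 h vehicle m1 gave 1 call. Among the further microglial markers Fcrls and Gpr34 were called higher at 10 h in depleted RNA, by 0.63 and 0.65 on the log2 scale. The others of that list did not pass. In beads edgeR called 0 of the 9 and 0% of all genes, where 3224 genes and 1 member, Csf1r (log2 fold change -1.16, SE 0.48), had p under 0.05 before adjustment. The counts with DESeq2 and limma voom were 0. The endothelial and mural list had a median of -1.54 in the same fit and the astrocyte list one of -0.70, with no member of either past the threshold, and their part in the Csf1r value was not tested.

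The genes that ran most closely with the 9 over the 14 depleted libraries were not all microglial. Among 15120 genes with a mean of at least 1 CPM, the highest correlations with the mean log2 level of the 9, after centring on each stratum, included those of Fads1 (Pearson r = 0.98), Cst3 (r = 0.98), Plppr3 (r = 0.96), Apoe (r = 0.96), Agt (r = 0.96), Sgpl1 (r = 0.95), Tmem9 (r = 0.95), Fads3 (r = 0.95) and Nsg2 (r = 0.95). Of these genes Cst3 and Apoe are known from both microglia and astrocytes, Agt is an astrocyte gene, and Nsg2 is known from neurons. Over all 28 libraries, centred on stratum and fraction, Apoe (r = 0.96) and Agt (r = 0.92) stayed high while Nsg2 (r = 0.15) and Fads3 (r = 0.35) did not. The libraries share depth, arm and run, so these values describe the 14 libraries and carry no test.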

How the data were processed

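RNA sequencing libraries of 14 hypothalamic lysates, 1 bead and 1 depleted library each (28 libraries), were compared. The authors deposited raw whole-number counts per gene for 55487 genes. Reads were aligned with STAR 2.7.6a to GRCm38.p6, per the submitters' processing notes. How reads were counted, with which annotation and strand setting, was not given in the sources used here, and the kit does not mark strand.

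Samples were grouped by the labels, and every value column was mapped to a sample. Genes were kept where 3 or more libraries had 10 or more counts, and counts were scaled by TMM. Differences were tested with edgeR 4.0.16 in R 4.3.3 (quasi-likelihood, robust), p-values adjusted by Benjamini-Hochberg across the whole table and 0.05 as threshold. Each fraction was fitted over its 14 libraries with 1 mean per group. Comparisons between fractions had the lysate as a block. The 2 fractions of a lysate carry the same number in the titles, and in all 10 lysates that could be checked the bead library correlated best with its own partner (r of deviations 0.0694 to 0.282). Whether a lysate was 1 mouse or several is not given, so p-values measure the spread between these samples. The 36 pairs of genes were compared by exact sign-flip permutation over lysates, for which the smallest p is 0.000122. Log2 CPM used a prior count of 0.5. Gene positions are from GENCODE M21 (55227 of 55487 identifiers found).

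The fits were tested on simulated data. DESeq2 1.42.0, limma 3.58.1 voom, other scalings, no filter, left-out lysates and covariates were alternatives. All 9 genes are given in every comparison, and other genes are named where their list is described, by level or because they passed. Of the 10 genes most like the members, 1 is not reported here. The members and lists were chosen with earlier results of these data known. Python 3.11.15, scipy 1.17.1 and matplotlib 3.10.9 were used.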

Additional observations from a re-analysis of the deposited data

Results flagged for a closer look

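Cx3cr1 in the depleted RNA of WT vehicle mice at 3 h was 19.75 CPM in lysate f1, against 13.7 to 14.1 CPM in the other 3 lysates. The gap to the nearest library was 0.948 of the group's range, beyond the 95% limit of Dixon's test for 4 samples. It was the only one of 27 groups examined to pass that limit, and chance passes about 1 in 20 groups.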

How the results depend on the processing

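The fall of all 9 genes in beads kept its direction and its call under every alternative run, also with no replicate block (9 called), and the passing pair, C1qb and P2ry12, was the 1 pair called under both alternatives tried for it. Leaving out the replicate block changed no other call and turned 1 value near 0, the 3 h fraction difference of C1qa (-0.0073). Counts of leptin calls depended on the tool and the filter. Shares of all genes called are given for the main edgeR fits only, so the counts under alternatives have no background beside them. With no filter on low counts the calls were 8 for leptin at 3 h in depleted RNA, 3 for leptin at 10 h in depleted RNA, 6 for leptin at 10 h in beads, 8 and 8 for the common leptin effect in beads and depleted RNA, 4 for ob/ob over WT in depleted RNA, and 1 and 1 for 10 h over 3 h in beads and depleted RNA. With DESeq2 they were 6, 0, 1, 2 and 8 for the same leptin fits, and 1 for 10 h over 3 h in depleted RNA. The common effect in depleted RNA had 2 calls with the letter of the title as a covariate, 0 with WT libraries alone and 0 with the glial and vascular covariate, where Aif1 turned to 0.052; the last 2 fits were chosen after seeing the data. Without m3 and f2 the common bead effect had 7 calls, C1qb turned to -0.057 for 10 h over 3 h in depleted RNA, and the 3 h fraction difference turned to -0.54 for C1qa, -0.27 for C1qb, -0.84 for Csf1r, -0.32 for Ctss and -0.16 for P2ry12. Other turns of values near 0 were -0.0090 for the 3 h fraction difference of C1qa with limma voom and, with library totals, -0.015 for P2ry12 (10 h over 3 h) and 0.022 for C1qb (ob/ob over WT), both in beads. The cause was not tested in any of these.

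Leaving out each lysate in turn gave 0 to 6 calls for the common effect in depleted RNA, 0 to 2 in beads, 0 to 2 for leptin at 3 h in depleted RNA, 0 to 1 for 10 h over 3 h in depleted RNA and 1 to 2 for ob/ob over WT in depleted RNA. The 3 h fraction difference ranged from -0.44 to 0.32 for C1qa, -0.21 to 0.32 for C1qb, -0.48 to 0.074 for C1qc, -0.63 to 0.65 for Csf1r, -0.43 to 0.24 for Cx3cr1, -0.20 to 0.44 for Ctss, -0.29 to 0.030 for Aif1, -0.63 to 0.45 for Tmem119 and -0.13 to 0.24 for P2ry12, and that over all strata from -0.62 to 0.044 for Csf1r. In beads ob/ob over WT ranged from -0.23 to 0.053 for C1qa, -0.27 to 0.18 for C1qb, -0.27 to 0.14 for C1qc, -0.24 to 0.24 for Csf1r, -0.37 to 0.045 for Ctss, -0.29 to 0.069 for Tmem119 and -0.34 to 0.12 for P2ry12, and 10 h over 3 h from -0.055 to 0.085 for P2ry12. Aif1 with leptin at 10 h in depleted RNA ranged from -0.040 to 0.13. Leaving out the lone WT 10 h vehicle or ob/ob leptin lysate gave no value for the comparisons that need it. Aif1 in beads, at 11 to 40 counts, is limited by depth.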
